A study of Homo sapiens with 6 samples.

Results

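RPA1, RPA2 and RPA3, the subunits of replication protein A (RPA), RFC1, RFC2, RFC3, RFC4 and RFC5, the subunits of replication factor C (RFC), and the Okazaki fragment enzymes FEN1 and LIG1 were taken by gene symbol, as a list drawn up with earlier results of these data known. They are 10 of the 30618 genes in the deposited count table. All 10 were present in the count and the FPKM tables, and all 10 passed the filter on low counts that left 16749 genes for testing. The cells were ARPE-19, an established human retinal pigment epithelial line. Both groups were kept in 50 mM glucose, used as a model of the diabetic eye, so glucose did not differ between them. The NC group (3 libraries, genotype label Negative control) received a non-targeting siRNA, and the siEIF1 group (3 libraries) received an siRNA against EIF1, an initiation factor that takes part in start codon selection. The study's methods give 1 siRNA sequence for each group, delivered by lipid transfection, and call the libraries of a group biological replicates. The question put to these genes was how their mRNA differed between the siEIF1 and the NC libraries.

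During DNA replication, RPA coats the single-stranded template exposed by the helicase, protects it and recruits repair and checkpoint proteins. RFC is a ring-opening ATPase that places the sliding clamp PCNA on primer ends, and its small subunits RFC2 to RFC5 are shared with other loaders that carry RAD17, ATAD5 or CHTF18 in place of RFC1. On the lagging strand, the flap endonuclease FEN1 trims the displaced end of each Okazaki fragment and DNA ligase I, the product of LIG1, seals the nick. Many genes of this machinery are transcribed mainly around the G1/S transition, often through E2F factors.

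The libraries held between 26499929 and 31431479 counts each. EIF1 itself stood at 294.35, 281.08 and 281.28 FPKM in the NC libraries and at 24.28, 22.68 and 23.50 FPKM in the siEIF1 libraries, which was 8.22% of the NC mean and in the direction of the labels. Of 11 retinal pigment epithelium markers, 8 reached 0.1 FPKM in the libraries, and no such level was listed for RPE65, TTR and TYR, which mark the differentiated tissue. The summed FPKM of that list ran from 521 to 540 in NC and from 563 to 610 in siEIF1. Of its 8 tested genes, 3 (RLBP1, KRT8 and KRT18) passed the test as higher and 5 did not pass. The log2 fold change was negative in 4 of the 8, with a median of 0.05. Most of the sum was the keratin gene KRT18, at a mean of 326 FPKM in NC and 382 in siEIF1. BEST1 went from a mean of 66 to 52 FPKM (edgeR's quasi-likelihood test, adjusted p = 0.106). Overlap of marker genes with neighbouring genes was not examined. Of the 5 endothelial markers only KDR reached 0.1 FPKM, with sums of 0.2 to 0.26 in NC and 0.14 to 0.26 in siEIF1, and of the 5 immune markers only CD68 and CSF1R did, with sums of 1.08 to 1.19 and 1.15 to 1.28. The part of these marker levels in the results below was not tested.

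In the siEIF1 libraries 9 of the 10 genes were lower, and RPA1 was the member that did not pass the test. A gene was called lower when edgeR's quasi-likelihood test on the counts gave a Benjamini-Hochberg adjusted p under 0.05 over all tested genes. Among all 16749 tested genes, 10.4% were called lower and 10.2% higher, and the median log2 fold change was 0.0033. No member was called higher by edgeR, by DESeq2 or at an unadjusted p under 0.05 (0 of 10 in each). The median log2 fold change of the 10 genes was -0.66, and the members ranged from -1.28 for RPA2 to -0.08 for RPA1. In bulk RNA, fewer cells that express these genes and less of their mRNA per cell cannot be told apart.

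The largest declines within the set were those of RPA2, RFC4, FEN1 and RFC3, and these 4 genes had a fold change under 0.5 as well as an adjusted p under 0.05, which 1.31% of tested genes had. RPA2 was the member whose whole 95% interval lay beyond that limit (-1.42 to -1.14), while the intervals of RFC4 (-1.33 to -0.97), FEN1 (-1.25 to -0.97) and RFC3 (-1.29 to -0.84) reached across a log2 fold change of -1. In every one of the 10 genes, RPA1 included, each siEIF1 library lay below each NC library in CPM (counts scaled to a common library size by the trimmed mean of M values), against 18.9% of tested genes. The spread between libraries of a group was small next to most of these differences, with coefficients of variation of the CPM between 2.11% and 9.72% in NC and between 1.72% and 10.4% in siEIF1.

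**Figure D1:**
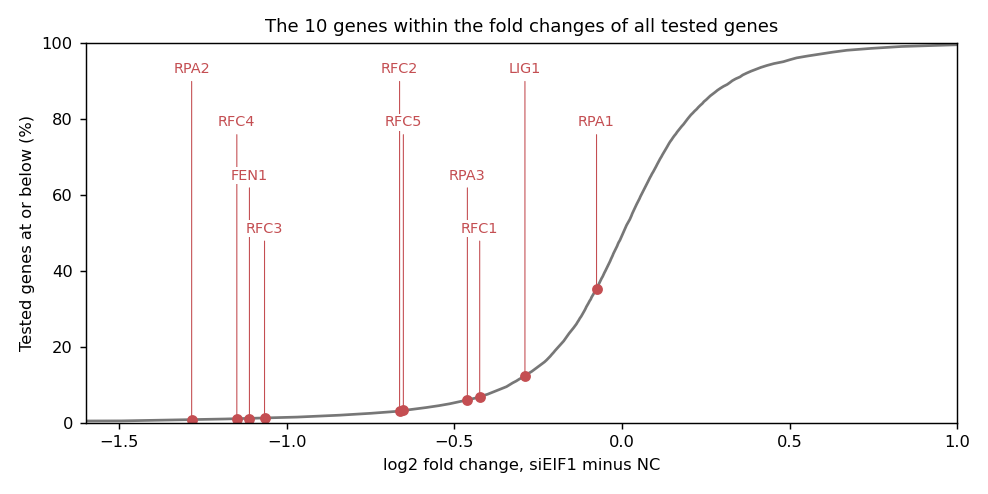
Cumulative share of the 16749 tested genes (vertical axis, percent) by log2 fold change, siEIF1 minus NC (horizontal axis), with the 10 genes marked in red. RPA2, RFC4, FEN1 and RFC3 sit in the lowest part of the curve, where 0.812% to 1.22% of tested genes lie at or below them, and RPA1 sits at 35.3%.

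Within RPA, RPA2 and RPA3 were lower in siEIF1 and RPA1 did not pass the test. RPA2, the middle subunit, which is phosphorylated under replication stress, stood at 16.40, 15.06 and 15.29 FPKM in NC and at 6.23, 6.0 and 6.70 FPKM in siEIF1. The groups were far apart, with every siEIF1 library under 7 FPKM and every NC library above 15 FPKM. RPA2 was 2.43-fold lower (log2 fold change -1.28, SE 0.0652, edgeR's quasi-likelihood test, Benjamini-Hochberg adjusted p = 1.29e-07), the smallest p of the 10 genes. RPA3, the smallest subunit, needed to assemble the trimer, stood at 4.36, 4.42 and 4.66 FPKM in NC and at 3.14, 3.50 and 2.99 FPKM in siEIF1. It fell 1.38-fold (log2 fold change -0.46, SE 0.0836, edgeR adjusted p = 0.00166), and its siEIF1 libraries varied more than its NC libraries.

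RPA1, the large subunit that carries most of the DNA-binding domains, stood at 8.83, 8.93 and 8.76 FPKM in NC and at 8.13, 8.21 and 8.47 FPKM in siEIF1. The siEIF1 libraries were each lower than the NC libraries by a margin that did not pass the test (log2 fold change -0.08, SE 0.049, 95% interval -0.18 to 0.03, edgeR adjusted p = 0.312). The interval leaves room for a decrease of up to 0.18 on the log2 scale, which is less than the decline of RPA2 or RPA3 at the upper end of their intervals (-1.14 and -0.28). The order of the subunits by FPKM was RPA2, RPA1, RPA3 in NC and RPA1, RPA2, RPA3 in siEIF1, with no overlap between neighbours in either group.

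**Figure D2:**
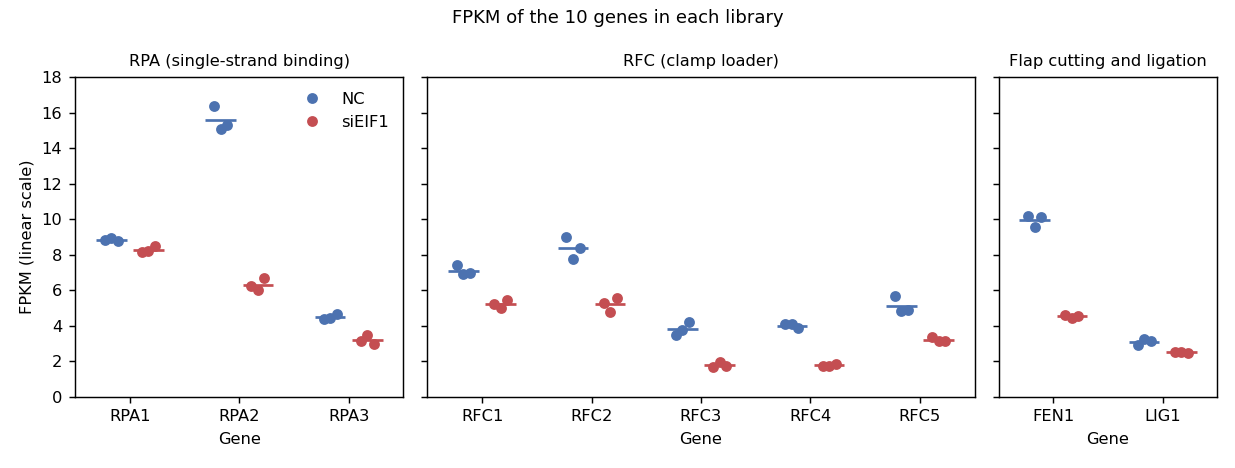
FPKM of each gene (vertical axis, linear and starting at 0) in the 3 NC (blue) and the 3 siEIF1 (red) libraries, with a horizontal line at each group mean. RPA2 drops from above RPA1 in NC to below it in siEIF1, RFC1 and RFC2 share a mean of 5.22 FPKM in siEIF1, and RPA1 and LIG1 show the smallest distances between groups.

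All 5 RFC subunits were lower in siEIF1, and the small subunits RFC3 and RFC4 fell furthest. RFC4 stood at 4.08, 4.08 and 3.87 FPKM in NC and at 1.76, 1.71 and 1.87 FPKM in siEIF1, with little spread within either group. It was 2.22-fold lower (log2 fold change -1.15, SE 0.0847, edgeR's quasi-likelihood test, Benjamini-Hochberg adjusted p = 1.32e-06). RFC3, another of the shared small subunits, stood at 3.49, 3.76 and 4.19 FPKM in NC and at 1.70, 1.97 and 1.71 FPKM in siEIF1. RFC3 was 2.09-fold lower (log2 fold change -1.07, SE 0.104, edgeR adjusted p = 1.27e-05) and varied more between libraries than RFC4.

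RFC2 and RFC5, the remaining small subunits, fell by similar amounts. RFC2 stood at 9.0, 7.78 and 8.36 FPKM in NC and at 5.30, 4.79 and 5.56 FPKM in siEIF1, and was 1.58-fold lower (log2 fold change -0.66, SE 0.0765, edgeR adjusted p = 5.43e-05). RFC5 stood at 5.69, 4.85 and 4.86 FPKM in NC and at 3.37, 3.15 and 3.13 FPKM in siEIF1, and was 1.57-fold lower (log2 fold change -0.65, SE 0.0833, edgeR adjusted p = 0.000124). In both genes NC library 1 was the highest of the 6 libraries, and the groups did not overlap. RFC1, the large subunit that makes the loader specific for replication, stood at 7.42, 6.92 and 6.97 FPKM in NC and at 5.23, 5.0 and 5.43 FPKM in siEIF1. RFC1 showed the smallest decline of the 5 subunits, 1.34-fold (log2 fold change -0.42, SE 0.0532, edgeR adjusted p = 0.000108).

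The order of the RFC subunits by FPKM in NC was RFC2, RFC1, RFC5, RFC4 and RFC3, in which only RFC4 and RFC3 overlapped. In siEIF1 the order was RFC1, RFC2, RFC5, RFC3 and RFC4, in which RFC1 overlapped with RFC2 and RFC3 overlapped with RFC4. Summed over the subunits, FPKM went from 28.4 ± 1.16 (SD, n = 3) to 17.2 ± 0.552 for RFC, which was 60.6% of NC. For RPA the sum went from 28.9 ± 0.613 to 17.8 ± 0.337, which was 61.5% of NC. The RPA sum joins unlike subunits, at 40.5% of NC for RPA2, 71.7% for RPA3 and 93.6% for RPA1. The sum over RFC2 to RFC5, the subunits shared with the other loaders, went from 21.3 ± 0.896 to 12 ± 0.342 FPKM, or 56.3% of NC.

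Both enzymes that finish Okazaki fragments were lower, FEN1 by far more than LIG1. FEN1 stood at 10.18, 9.56 and 10.13 FPKM in NC and at 4.63, 4.44 and 4.56 FPKM in siEIF1. It was 2.16-fold lower (log2 fold change -1.11, SE 0.0662, edgeR's quasi-likelihood test, Benjamini-Hochberg adjusted p = 3.77e-07), and its siEIF1 libraries lay close together. LIG1 stood at 2.94, 3.24 and 3.14 FPKM in NC and at 2.52, 2.54 and 2.46 FPKM in siEIF1. The decline of LIG1 was 1.22-fold (log2 fold change -0.29, SE 0.0675, edgeR adjusted p = 0.00832), the smallest among the members that passed. FEN1 remained above LIG1 in FPKM in both groups, and their sum went from 13.1 ± 0.24 (SD, n = 3) to 7.05 ± 0.0889 FPKM.

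**Figure D3:**
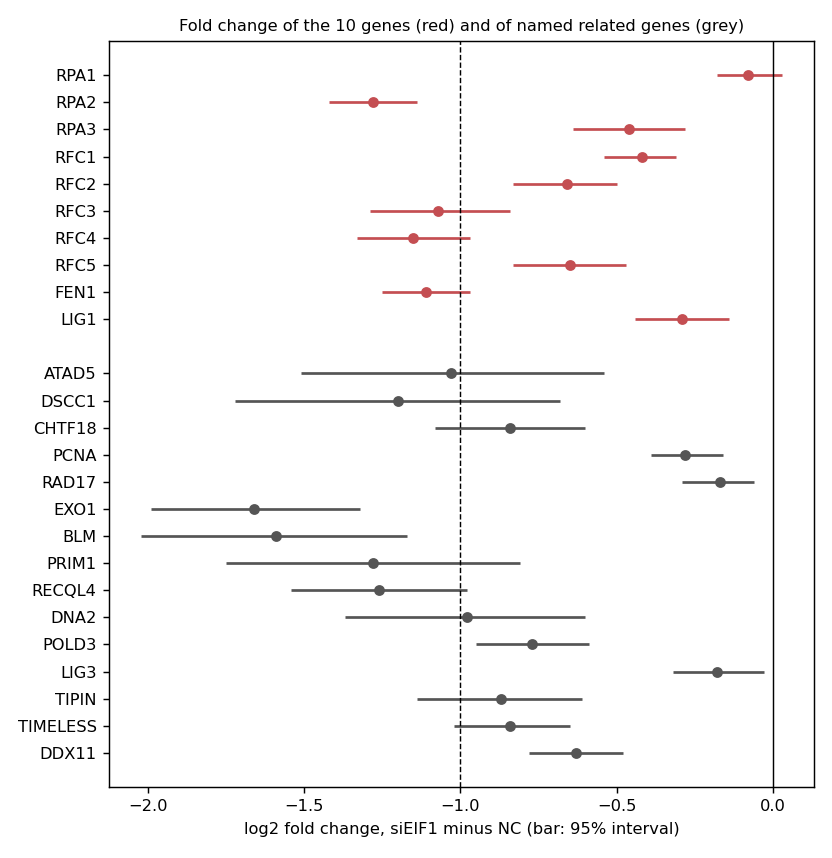
log2 fold change of the 10 genes (red) and of 15 related genes (grey), siEIF1 minus NC, with 95% intervals as bars, a solid line at 0 and a dashed line at -1. Only RPA1 among the red bars reaches 0, and only RPA2 among them lies wholly to the left of -1.

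To compare how far partners moved, the ratio of counts between genes of the same library, in which library size cancels, was compared between the groups. In 10 of 11 ratios the groups did not overlap, and the share over other pairs of genes was not computed. The ratios are not independent, since most are taken to RFC1 or RPA1, the subunits that moved least in their complexes. With 3 libraries against 3, a two-sided exact permutation test cannot go below p = 0.1, which each of these 10 ratios reached (0.11 after Benjamini-Hochberg adjustment over the 11 ratios), so none could pass 0.05. The log2 ratio of RPA2 to RPA1 differed by -1.21 between siEIF1 and NC (SE 0.0522), and in FPKM this ratio went from 1.86, 1.69 and 1.75 in NC to 0.77, 0.73 and 0.79 in siEIF1. That of RPA3 to RPA1 differed by -0.39 (SE 0.0862), from a mean FPKM ratio of 0.507 ± 0.0217 (SD, n = 3) to 0.389 ± 0.0367.

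Relative to RFC1, every small RFC subunit was lower in each siEIF1 library than in each NC library. The log2 ratio to RFC1 differed by -0.72 for RFC4 (SE 0.0336), by -0.64 for RFC3 (SE 0.143), by -0.24 for RFC2 (SE 0.0451) and by -0.23 for RFC5 (SE 0.0656). In FPKM, RFC4 stood at 0.55, 0.59 and 0.56 of RFC1 in NC and at 0.34 in each siEIF1 library. Among the small subunits the ratio to RFC1 varied most for RFC3, and in FPKM it ran from 0.47 to 0.60 in NC and from 0.31 to 0.39 in siEIF1. The log2 ratio of LIG1 to FEN1 differed by 0.82 (SE 0.0728), so that LIG1 stood higher relative to FEN1 in siEIF1, and the FPKM ratio went from 0.29, 0.34 and 0.31 to 0.54, 0.57 and 0.54.

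**Figure D4:**
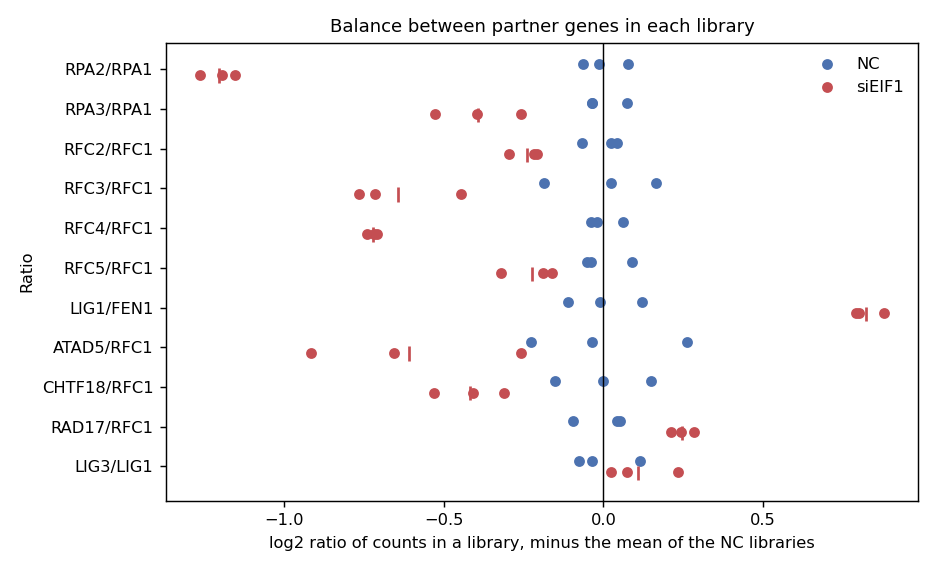
log2 ratio of the counts of a pair of genes in each library, less the mean of the NC libraries (horizontal axis), for 11 pairs (vertical axis), in NC (blue) and siEIF1 (red), with a red tick at the siEIF1 mean. RPA2/RPA1 lies furthest to the left, LIG1/FEN1 furthest to the right, and LIG3/LIG1 is the pair whose groups overlap.

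The promoters of members that fell far, RFC4, RFC3 and FEN1, are shown beside those of LIG1 and RPA1, which moved least, so that their letters can be set against each other. RefSeq promoter sequences (GRCh38.p14, from 250 bases before to 50 bases after the RefSeq start, 300 bases on the strand of the gene) were matched for 8 of the 10 genes, and RPA2 and RPA3 had no entry. Capitals mark the E2F core TTNNCGC, in which each N is C or G, and CCAAT, on either strand. The windows are chr3:186806433-186806732 (reverse strand) for RFC4, chr13:33817899-33818198 (forward) for RFC3, chr11:61792661-61792960 (forward) for FEN1, chr19:48170295-48170594 (reverse) for LIG1 and chr17:1829755-1830054 (forward) for RPA1.
RFC4: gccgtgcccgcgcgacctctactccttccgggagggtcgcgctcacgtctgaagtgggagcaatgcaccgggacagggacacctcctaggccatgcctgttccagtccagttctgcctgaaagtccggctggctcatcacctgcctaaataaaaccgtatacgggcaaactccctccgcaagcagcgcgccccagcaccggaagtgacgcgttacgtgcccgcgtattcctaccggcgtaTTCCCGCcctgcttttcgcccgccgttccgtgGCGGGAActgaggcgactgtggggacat
RFC3: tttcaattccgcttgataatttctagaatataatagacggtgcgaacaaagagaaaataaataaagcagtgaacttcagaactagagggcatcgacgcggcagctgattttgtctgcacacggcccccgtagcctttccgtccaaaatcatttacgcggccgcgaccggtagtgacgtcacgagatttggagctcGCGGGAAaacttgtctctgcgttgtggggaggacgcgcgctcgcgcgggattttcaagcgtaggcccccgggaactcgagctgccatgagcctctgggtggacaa
FEN1: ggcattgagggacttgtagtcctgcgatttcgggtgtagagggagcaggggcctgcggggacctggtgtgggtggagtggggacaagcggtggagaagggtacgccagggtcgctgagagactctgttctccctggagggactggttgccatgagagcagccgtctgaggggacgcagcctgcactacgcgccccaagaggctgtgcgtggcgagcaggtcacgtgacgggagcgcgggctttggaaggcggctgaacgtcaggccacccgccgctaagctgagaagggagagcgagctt
LIG1: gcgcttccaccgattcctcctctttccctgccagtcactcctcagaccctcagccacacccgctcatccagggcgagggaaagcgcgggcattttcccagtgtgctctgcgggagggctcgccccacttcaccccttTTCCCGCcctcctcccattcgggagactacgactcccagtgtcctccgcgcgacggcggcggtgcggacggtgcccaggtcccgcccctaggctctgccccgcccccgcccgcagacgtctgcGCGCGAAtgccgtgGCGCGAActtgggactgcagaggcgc
RPA1: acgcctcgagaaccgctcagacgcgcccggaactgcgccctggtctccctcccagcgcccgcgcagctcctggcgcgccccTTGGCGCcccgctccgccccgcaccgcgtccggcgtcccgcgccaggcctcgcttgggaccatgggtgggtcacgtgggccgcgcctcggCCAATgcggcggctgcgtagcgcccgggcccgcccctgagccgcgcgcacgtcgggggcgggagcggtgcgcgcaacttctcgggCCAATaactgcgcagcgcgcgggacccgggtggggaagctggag

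The E2F core was found in 7 of the 8 promoters, all but that of FEN1, against 13.1% of 27305 promoters and 20.8% of the 10481 promoters of tested protein-coding genes. This shorter form was searched after the letters had been seen, and it lies inside every match of the full form. The full E2F site TTTNNCGC was found in RFC3 and LIG1, 2 of 8 promoters, against 3.33% of all promoters and 5.36% of those of tested protein-coding genes. Positions were counted from the RefSeq start, with the first transcribed base as 1. The full match in RFC3 began at -55 and that in LIG1 at -114, while the core matches in RFC4 began at -10 and 23. RPA1 held the core at -169.

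CCAAT was found in 3 of the 8 promoters (RPA1, RFC1 and RFC5), against 36.4% of those of tested protein-coding genes. The GC box GGGCGG was found in 6 of 8, against 70.5%, and the CHR element TTTGAA in 0 of 8, against 9.45%. All motifs were searched on both strands. The median GC content of the 8 promoters was 64.3%, next to 65.3% for tested protein-coding genes. The members with a full or a core match included RFC4 and RFC3, which fell past the 2-fold limit, as well as LIG1 and RPA1, which moved least, and FEN1, without a match, fell 2.16-fold. A match of letters describes the window and is not a measured binding site.

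In GENCODE v44 on GRCh38 only RPA3 and RFC2 share a chromosome. The promoter windows of RPA1, RFC4, RFC5 and LIG1 lay wholly inside the GENCODE span of the gene. Their RefSeq starts thus differ from the outermost GENCODE starts, and the motif positions depend on the annotation used. Identifiers are those of the deposited tables, and those of RFC1 and LIG1 carry another version number than in GENCODE v44. RPA1 (ENSG00000132383.12) spans chr17:1829702-1900082 on the forward strand with 17 exons in its canonical transcript. RPA2 (ENSG00000117748.10) spans chr1:27891524-27914746 on the reverse strand with 9 exons, and RPA3 (ENSG00000106399.11) spans chr7:7636518-7718607 on the reverse strand with 8 exons. Among the loader subunits, RFC1 (ENSG00000035928.16) spans chr4:39287456-39366375 and RFC2 (ENSG00000049541.11) spans chr7:74231499-74254458, both on the reverse strand. RFC3 (ENSG00000133119.13) spans chr13:33818069-33966558 on the forward strand, RFC4 (ENSG00000163918.12) chr3:186789880-186807058 on the reverse strand and RFC5 (ENSG00000111445.14) chr12:118013588-118033130 on the forward strand. FEN1 (ENSG00000168496.4) is compact, with 2 exons at chr11:61792911-61797238 on the forward strand, whereas LIG1 (ENSG00000105486.14) has 28 exons across chr19:48115445-48170603 on the reverse strand.

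Several members share exon bases with an annotated neighbour. The libraries were directional, but the strand setting of the counting is not given in the sources used here, so reads from these stretches could have been assigned to either gene. RPA2, RFC1, RFC2 and RFC3 shared no exon bases with another annotated gene. FEN1 shared 49 bases with FADS2, a fatty acid desaturase gene on the same strand, and FADS2 moved up while FEN1 moved down (log2 fold change 0.28, edgeR adjusted p = 0.0129). RFC4 shared 18 bases with EIF4A2, an RNA helicase gene on the opposite strand, whose log2 fold change was 0.09 (edgeR adjusted p = 0.204).

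RFC5 shared 186 bases with WSB2 on the opposite strand, which was lower by a smaller step (log2 fold change -0.23, edgeR adjusted p = 0.00304), and 160 bases with the lncRNA RP11-33N14.3 (log2 fold change -0.54, edgeR adjusted p = 0.288). RPA3 shared 118 bases with UMAD1 on the opposite strand (log2 fold change -0.29, edgeR adjusted p = 0.0205) and 70 bases with the lncRNA RP11-505D17.1, which had at most 1 count in any library. RPA1 shared 175 bases with SMYD4 on the opposite strand (log2 fold change -0.19, edgeR adjusted p = 0.249). LIG1 shared 425 bases with the lncRNA CTC-453G23.5, whose counts lay between 3 and 9 in the 6 libraries, far below those of LIG1. Leaving out NC replicate 1 or 2 took FADS2 past 0.05 (edgeR adjusted p = 0.0523 and 0.0574), and limma did not call it on log2(FPKM + 0.1) or log2(FPKM + 1) (adjusted p = 0.205 and 0.216). Leaving out NC replicate 2 or 3 or siEIF1 replicate 1 or 2 took UMAD1 past 0.05 (edgeR adjusted p between 0.0521 and 0.0696).

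Beyond the members, 55 genes that work with them were listed in 3 groups, and 51 of these were tested. Of the 51, 28 were lower, 2 were higher and 21 did not pass, next to 10.4% lower and 10.2% higher over all tested genes, and their median log2 fold change was -0.29. The 10 members, with 9 lower, had a median of -0.66. Both sets were drawn up with earlier results of these data known, and their medians were not tested against each other. Single related genes ranged from -1.66 to 0.24, and members from -1.28 to -0.08, so the furthest decline was outside the members.

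Among the clamps and the other clamp loaders, 6 of 9 tested genes were lower, none was higher by edgeR or DESeq2 or at an unadjusted p under 0.05, and the median was -0.28. PCNA, the clamp that RFC loads, stood at 68.81, 66.83 and 65.49 FPKM in NC and at 54.45, 56.31 and 52.89 FPKM in siEIF1, 81.4% of NC on average (log2 fold change -0.28, SE 0.0525, edgeR adjusted p = 0.00226). Its decline was of the size of that of LIG1 and well short of that of RFC3 or RFC4. ATAD5, the large subunit of the loader that removes PCNA from DNA, stood at only 0.27, 0.22 and 0.31 FPKM in NC and at 0.12, 0.15 and 0.11 FPKM in siEIF1 (log2 fold change -1.03, SE 0.224, edgeR adjusted p = 0.00557), with a mean of 48.2 counts a library, a call that limma on log2(FPKM + 1) did not make (adjusted p = 0.0571). DSCC1, a partner of the cohesion loader, fell by 1.20 on the log2 scale (SE 0.24, edgeR adjusted p = 0.0032), and CHTF18, its large subunit, fell by 0.84 (SE 0.111, edgeR adjusted p = 0.000161).

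RAD17, the large subunit of the loader of the checkpoint clamp, stood at 7.43, 7.61 and 7.76 FPKM in NC and at 6.51, 6.52 and 6.90 FPKM in siEIF1. Its log2 fold change was -0.17 (edgeR adjusted p = 0.0356). DESeq2 did not make this call (adjusted p = 0.0673), nor did limma on log2(FPKM + 0.1) or log2(FPKM + 1) (adjusted p = 0.0529 and 0.055). It was also lost in edgeR without the filter on low counts (adjusted p = 0.0747). Leaving out NC replicate 1, 2 or 3 or siEIF1 replicate 1 or 2 lost it too (edgeR adjusted p between 0.0536 and 0.118). Relative to RFC1 in the same library, RAD17 was higher by 0.25 on the log2 scale (SE 0.0525), from 1.0, 1.10 and 1.11 in FPKM to 1.24, 1.30 and 1.27. The log2 ratios of CHTF18 and ATAD5 to RFC1 differed by -0.42 (SE 0.107) and by -0.61 (SE 0.239), the latter with the groups barely apart. The large subunits that compete for the shared small subunits ranked RAD17, RFC1, CHTF18, ATAD5 by mean FPKM in both groups (7.6, 7.1, 1.3 and 0.267 in NC, and 6.64, 5.22, 0.717 and 0.127 in siEIF1), and NC library 1 had RAD17 and RFC1 side by side at 7.43 and 7.42.

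Among genes of lagging strand synthesis and Okazaki processing, 13 of 22 tested genes were lower, 1 was higher and the median was -0.36. The nuclease EXO1, a relative of FEN1 that resects ends and acts in mismatch repair, stood at 0.98, 0.90 and 0.88 FPKM in NC and at 0.28, 0.29 and 0.29 FPKM in siEIF1 (log2 fold change -1.66, SE 0.155, edgeR adjusted p = 9.08e-06). DNA2, which cuts long flaps that escape FEN1, was at 50% of its NC mean (log2 fold change -0.98, SE 0.178, edgeR adjusted p = 0.00168; limma on log2(FPKM + 1), adjusted p = 0.0508). The helicase genes BLM and RECQL4 fell by 1.59 (SE 0.197) and 1.26 (SE 0.129) on the log2 scale, with edgeR adjusted p of 0.0001 and 2.08e-05. PRIM1, the catalytic primase subunit that starts each fragment, fell by 1.28 (SE 0.218, edgeR adjusted p = 0.00105). The polymerase delta subunit POLD3 fell by 0.77 (SE 0.0831, edgeR adjusted p = 2.97e-05). Counts were low for PRIM1 and BLM, at means of 58.5 and 69 a library.

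LIG3, which can stand in for LIG1 in joining fragments, did not pass the test (log2 fold change -0.18, 95% interval -0.32 to -0.03, edgeR adjusted p = 0.077). Its ratio to LIG1 was the pair whose groups overlapped, with a difference of 0.11 on the log2 scale (SE 0.0865, two-sided exact permutation p = 0.3). POLD4, the smallest polymerase delta subunit, named after its value was seen, was the gene of the group that was higher (log2 fold change 0.21, edgeR adjusted p = 0.03).

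Among RPA partners and other single-stranded DNA binding genes, 9 of 20 tested genes were lower, 1 was higher and 10 did not pass, with a median of -0.22. TIPIN, which binds RPA2 at the fork, fell by 0.87 (SE 0.122, edgeR adjusted p = 0.000246), and its partner TIMELESS fell by 0.84 (SE 0.0844, edgeR adjusted p = 1.75e-05). The helicase DDX11 fell by 0.63 (SE 0.0697, edgeR adjusted p = 3.69e-05). ETAA1, an RPA-bound activator of the kinase ATR, was the gene of the group that was higher (log2 fold change 0.24, edgeR adjusted p = 0.0338), and it too was named after its value was seen. Of POLD4 and ETAA1, at most 1 was still called when any library was left out, and neither without NC replicate 1 or siEIF1 replicate 1 or 2 (0 at adjusted p under 0.05, and 3, 2 and 2 related genes at an unadjusted p under 0.05).

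The genes whose pattern over the 6 libraries was most like those of RPA2, RFC4 and FEN1, the members with the smallest p in their roles, were found by Pearson's r of log2 CPM among 13383 genes with a mean count of at least 50. For RPA2 they were ATG12, POLD3 and CDCA5 (r = 0.9986 each), for RFC4 they were SKA3 (0.9990), POLD3 (0.9985) and NKAPD1 (0.9984), and for FEN1 they were SGTA (0.9993), EIF1 (0.9992) and H3-3B (0.9988). These values describe 6 libraries that fall into 2 separate groups, so any gene with a clear step between groups and little spread scores high. Among the members themselves, r with RPA2 was 0.9980 for RFC4, 0.9968 for FEN1 and 0.9943 for RFC1, and was lowest for RPA1 at 0.8593.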

How the data were processed

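Polyadenylated RNA of 6 ARPE-19 cultures was sequenced as directional paired-end libraries. Per the labels and the study's methods, the authors trimmed reads with FASTX-Toolkit 0.0.13, aligned them to GRCh38 with HISAT2, and deposited raw read counts and FPKM (fragments scaled by gene length and library size) per gene, and compared groups with DESeq2. The counter, the annotation release and the strand setting are not given in the sources used here. Identifiers are as deposited, positions and overlaps were matched in GENCODE v44 by gene identifier without its version, and promoters are from RefSeq.

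Here the deposited counts were tested in R 4.3.3 with edgeR 4.0.16 (TMM scaling, filterByExpr, quasi-likelihood test, Benjamini-Hochberg over 16749 genes), group being the only term. FPKM gave levels and per-length ratios. Intervals are 95%. The script was tested on simulated data. Alternatives were DESeq2 1.42.0, limma 3.58.1 on log2(FPKM + 1) and log2(FPKM + 0.1), other scalings and filters, a test against a 2-fold change, a replicate block and each library left out. Libraries of a group differed by more than sampling noise, so none was merged. Totals of at least 26499929 counts left at least 177 counts for each member in each library.

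The members and the related lists were chosen with earlier results of these data known. Named besides the members and EIF1 were, in each related list, genes past 2-fold and the 3 with the smallest p, PCNA, ATAD5, CHTF18, RAD17, DNA2, LIG3 and RPA4, genes overlapping a member, and the 3 genes most like the leading member of each role. A gene that the rule names is not reported here. Protein sequences were not analysed here.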

Additional observations from a re-analysis of the deposited data

How the results depend on the processing

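In all 14 alternatives tried for each of the 10 genes, direction and side of the threshold held (140 of 140 values), and RPA1 passed in none. The count past a 2-fold decrease, 4 in edgeR, was 1 with limma on log2(FPKM + 1), which shrinks changes of low genes by its construction, and 1 (RPA2) when edgeR tested against a 2-fold change itself. The members' median of -0.66 was -0.57 with limma on log2(FPKM + 1) and ran from -0.70 to -0.59 with each library left out in turn. Of the related genes, 28 of 51 were lower in edgeR, 17 of 55 with limma on log2(FPKM + 0.1) and 16 of 55 on log2(FPKM + 1). Over all tested genes, the lower calls were 1744 of 16749, 866 of 30275 and 815 of 30275 in the same order. For the 2 that were higher, DESeq2 called 1 (2 at an unadjusted p under 0.05) and limma 0 in both forms (2 unadjusted in each), and the count ran from 0 to 1 with a library left out, being 0 without NC replicate 1 or siEIF1 replicate 1 or 2 (3, 2 and 2 unadjusted) and 1 without each of the others. The causes were not tested. Of the other named genes' values, 285 of 307 kept direction and side of the threshold and 22 lost the call without turning. Among the 22 were ATAD5 with limma in both forms and DNA2 on log2(FPKM + 1). RAD17 lost its call with DESeq2, limma in both forms, no filter on low counts, and each library left out but siEIF1 replicate 3. The 11 ratios kept their direction in 88 of 88 alternatives.

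Replicate numbers were not treated as pairs: the deviations of same-numbered libraries from their group means correlated at 0.152, 0.0907 and 0.123, and every library correlated best with its own number, a hint from the data and not from the design. With the replicate block, 9 members were still lower and 4 passed 2-fold, while calls over all genes went from 3446 to 4277.

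Depth limits DSCC1 and ATAD5 most among the named loader genes, at means of 37.2 and 48.2 counts a library. With 3 libraries a group, the exact permutation test used for the ratios cannot pass 0.05.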

Other observations

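A few genes close to these complexes were listed with very few counts in both groups and were not tested, and whether their reads were assigned to other rows cannot be seen in the tables. RPA4, an alternative to RPA2 found in few tissues, had 3, 7 and 3 counts in NC and 4, 1 and 0 in siEIF1. CHTF8, a partner of CHTF18 and DSCC1 in the cohesion loader, had 8, 3 and 5 counts in NC and 4, 7 and 12 in siEIF1, and HELB, a helicase that binds RPA, had 6, 7 and 13 in NC and 9, 16 and 9 in siEIF1. RNASEH2A, the catalytic subunit of the ribonuclease that removes ribonucleotides from DNA, was listed with 0, 1 and 1 counts in NC and 0, 0 and 2 in siEIF1, although its partners RNASEH2B and RNASEH2C were both tested (log2 fold changes -0.18 and -0.02).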
